A study of Mus musculus with 64 samples.

Results

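Wild type hearts under chronic pressure overload were compared with sham hearts at week 8 after surgery, the last week sampled. The 8 hearts were chosen by their labels alone, as the 4 wild type TAC hearts (WTTAC, numbered 2, 5, 6 and 7) and the 4 wild type sham hearts (WTSH, numbered 1 to 4) of that week, out of 64 hearts in the series. Each library was made from the RNA of 1 heart. All 8 mice were male C57BL6 animals of wild type genotype, operated on at an age of 3 to 4 months. In transverse aortic constriction (TAC) a band narrows the aorta so that the left ventricle has to pump against a raised pressure, and sham mice had the operation without the constriction. The other groups of the series had the same operations at weeks 1, 2 and 4, or lacked Ndufs4, a subunit of respiratory complex I, through a Cre driven by the αMHC promoter, which is active in cardiomyocytes. The labels call the samples cardiac tissue and do not say which part of the heart was taken. Wall thickness, heart weight and pumping function were not analysed here, so the degree of hypertrophy or failure of each heart is not given. The comparison asks which genes a chronic pressure load changed in hearts with an intact complex I.

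A heart that works against a high pressure grows by enlarging its cardiomyocytes, and its fibroblasts lay down collagen and other matrix between them. Cardiomyocytes under load switch on genes otherwise used in the fetal ventricle, such as those for the natriuretic peptides, and lower genes for calcium pumping, repolarising potassium currents and fatty acid oxidation, the main source of ATP in the adult heart. Bulk RNA holds all cells of the sample together, so that fewer cells of a type and less RNA per cell cannot be told apart in any value below.

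Levels are FPKM, fragments per kilobase of transcript scaled to the mapped fragments of the library, as the authors deposited them. Differences are of the mean log2(FPKM + 1), WTTAC minus WTSH, given with their standard error (SE), and they understate the change of genes below a few FPKM. A gene was called higher or lower at a Benjamini-Hochberg adjusted p under 0.05 in limma, fitted over 13653 genes. A pair of groups of 4 cannot give a two-sided exact permutation p below 0.0286. FPKM carry no read counts, so the depth of the libraries is unknown. In each of the 8 hearts between 11850 and 12231 genes reached 1 FPKM, and no library was a copy of another. Markers of ventricular cardiomyocytes were abundant in every heart, with Myl2, the ventricular myosin light chain, at 12546, 12446, 11892 and 10821 FPKM in sham and 12165, 8770, 9387 and 9762 FPKM in TAC hearts, and the 8 lung markers summed to 0.0972 to 0.616 FPKM in sham and 0.177 to 0.677 FPKM in TAC hearts. Ndufs4 itself was at 109 ± 8.84 FPKM in WTSH and 90.2 ± 15.9 FPKM in WTTAC hearts (SD, n = 4), against 31.0 ± 5.83 in sham and 24.9 ± 2.01 in TAC hearts of the knockout (n = 4 each), so the 8 hearts followed their wild type label.

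A pair of TAC libraries stood apart. Heart 2 lay nearer to the sham hearts than the other TAC hearts did. Of the 2931 genes called when it was left out, heart 2 differed from the sham mean in the same direction for 84.5%, but it lay within the sham range for 34.4%, and its median difference was 0.323 of that of the other 3 TAC hearts. For hearts 5, 6 and 7, measured in the same way, 98.8%, 99.9% and 99.3% of genes went in the same direction. Heart 5 held high levels of some atrial genes, which were chosen for mention after their values were seen. Other genes of the atrial list did not follow. Nppa was lower in heart 5 than in hearts 6 and 7, and Stard10 was lower in every TAC heart than in every sham heart. Myl7, the atrial myosin light chain, was at 0.614, 0.336, 0.0798 and 0.209 FPKM in sham and 0.463, 104, 0.123 and 0.21 FPKM in TAC hearts, in heart order 2, 5, 6 and 7, which is kept in every list of TAC values. Sln, which encodes the atrial calcium pump inhibitor sarcolipin, was at 0.448, 40.2, 0 and 0 FPKM in TAC hearts. Some results are therefore also given without heart 2 or heart 5, but not every call or count that these hearts change. A value listed at 0 was not read as absence, since 153 genes with a median over 20 FPKM across those of the 64 libraries that list them above 0 were at 0 in at least 1 of the 8 hearts. The mitochondrial genes mt-Co2, mt-Cytb, mt-Nd5 and mt-Nd6 were listed at 0 in all of the 8 hearts but TAC heart 2.

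At week 8, 1410 genes (10.3% of those tested) were higher and 835 (6.12%) were lower in WTTAC than in WTSH hearts. Of these, 273 rose and 92 fell by at least 2-fold. Every TAC heart was above every sham heart for 1912 genes (14%) and below every sham heart for 1020 genes (7.47%). The split between rises and falls depended on how the libraries were scaled, with 1471 rises and 1268 falls once the libraries had been scaled by their median ratios (median-of-ratios scaling) and 1254 and 1470 with quantile normalization. The median over all genes moved from 0.046 to 0.0015 and -0.026. Without TAC heart 2, 1810 genes were higher (13.3%) and 1121 were lower (8.21%). That left 2157 of the 2245 calls in place, lost 88, added 774 and turned none around. The share of all genes called, 10.3% higher and 6.12% lower, is the background against which every count of a gene list with all hearts stands, and a list with a share near it shows nothing particular to its genes. A list count from another setting stands against the count of all genes in that setting. In a model of the 8 hearts alone, 1428 genes were higher and 842 lower. Leaving out TAC heart 5, 6 or 7 lowered the counts, to 1071, 860 and 802 higher and 580, 462 and 624 lower genes.

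The natriuretic peptide genes and the matrix genes led the rises. Nppa encodes atrial natriuretic peptide, a hormone that lowers blood volume and pressure, and lies at chr4:147374831-147376188 (build NCBIM37, mm9) beside Nppb, the gene of the related B-type peptide, at chr4:147359897-147361314. Both lie on the plus strand, each with 3 exons in the annotation. Ankrd1, at chr19:36186455-36194334 on the minus strand, encodes a titin-bound protein that responds to stretch. Their promoters are shown because these are classical load-responsive genes of the cardiomyocyte and all 3 were called, and because the peptide genes are neighbours. The sequences are the 250 bases upstream of each start site, 5′ to 3′ on the strand of the gene, from RefSeq on GRCm38.p6, a later build than that of the FPKM table. Capitals mark matches to 6 short motifs searched on both strands. The element called MCAT was spelled GGAATG, the site of GATA factors was spelled AGATAA, that of AP-1 was spelled TGANTCA and that of ERR receptors was spelled AAGGTCA. The CArG box was the fifth, and the PPAR repeat, a copy of AGGTCA on either side of any base, was the sixth.
Nppa, chr4:148000472-148000721 (+): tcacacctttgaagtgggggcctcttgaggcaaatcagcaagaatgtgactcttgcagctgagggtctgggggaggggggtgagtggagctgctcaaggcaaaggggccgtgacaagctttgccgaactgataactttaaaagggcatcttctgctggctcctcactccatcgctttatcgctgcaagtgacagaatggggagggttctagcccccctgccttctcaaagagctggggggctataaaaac
Nppb, chr4:147985650-147985899 (+): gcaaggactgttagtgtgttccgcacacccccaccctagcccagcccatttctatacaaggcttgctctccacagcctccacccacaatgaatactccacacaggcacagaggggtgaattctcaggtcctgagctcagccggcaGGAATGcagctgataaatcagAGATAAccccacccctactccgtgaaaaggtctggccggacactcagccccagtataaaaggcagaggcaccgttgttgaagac
Ankrd1, chr19:36119845-36120094 (-): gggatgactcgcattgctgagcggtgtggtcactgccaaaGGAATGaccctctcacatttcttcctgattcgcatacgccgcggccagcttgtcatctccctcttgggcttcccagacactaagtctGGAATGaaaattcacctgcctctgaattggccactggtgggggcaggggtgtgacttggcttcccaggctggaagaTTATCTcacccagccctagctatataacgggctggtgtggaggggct
In the Nppa window none of the 6 motifs matched. The Nppb window held an MCAT match whose first base was 105 bases before the start and a GATA match 84 bases before it, and the Ankrd1 window held MCAT matches at 210 and 123 bases and a GATA match on the other strand at 47 bases. Of 32851 mouse promoter windows of this length, 12.6% held MCAT, 9.99% GATA, 6.75% AP-1, 4.08% ERR, 1.47% the CArG box and 0.0335% the PPAR repeat. The ERR letters contain those of 1 copy of the PPAR repeat, so these searches overlap. Such matches are descriptions of these letters and say nothing on which factor is bound. Promoters were found for 10 of 12 genes searched, and the other windows held a single match in Timp1 (MCAT), Acadm (ERR) and 1 of the 2 promoters of Myh7 (MCAT) and none in Postn, Bdh1, Esrra and Ckm.

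Among the natriuretic peptides and the genes that handle them, 3 of 7 tested genes rose and none fell, with a median of 0.18 against 0.046 over all genes. Nppa was at 105, 367, 239.7 and 68.8 FPKM in sham hearts and at 1139, 4079, 8310 and 10365 FPKM in TAC hearts. All 4 TAC hearts lay above all sham hearts, and heart 7 was about an order of magnitude above heart 2 (log2 difference 4.81 ± 0.67, adjusted p = 2.34e-06 in limma). Nppb was at 136, 257, 105 and 48.6 FPKM in sham and 194, 1124, 2248 and 2085 FPKM in TAC hearts. It rose by 3.11 ± 0.50 (adjusted p = 2.06e-05), although heart 2 lay within the sham range. Npr3, the receptor that clears these peptides from the circulation, rose by 0.67 ± 0.18 (adjusted p = 0.00698), a call lost in a model of the 8 hearts alone, without sham heart 3 and without TAC heart 6 (adjusted p between 0.0531 and 0.0753). The signalling receptors Npr1 (0.15) and Npr2 (0.18) and the processing proteases Corin (-0.15) and Furin (0.10) did not pass the test.

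**Figure D1:**
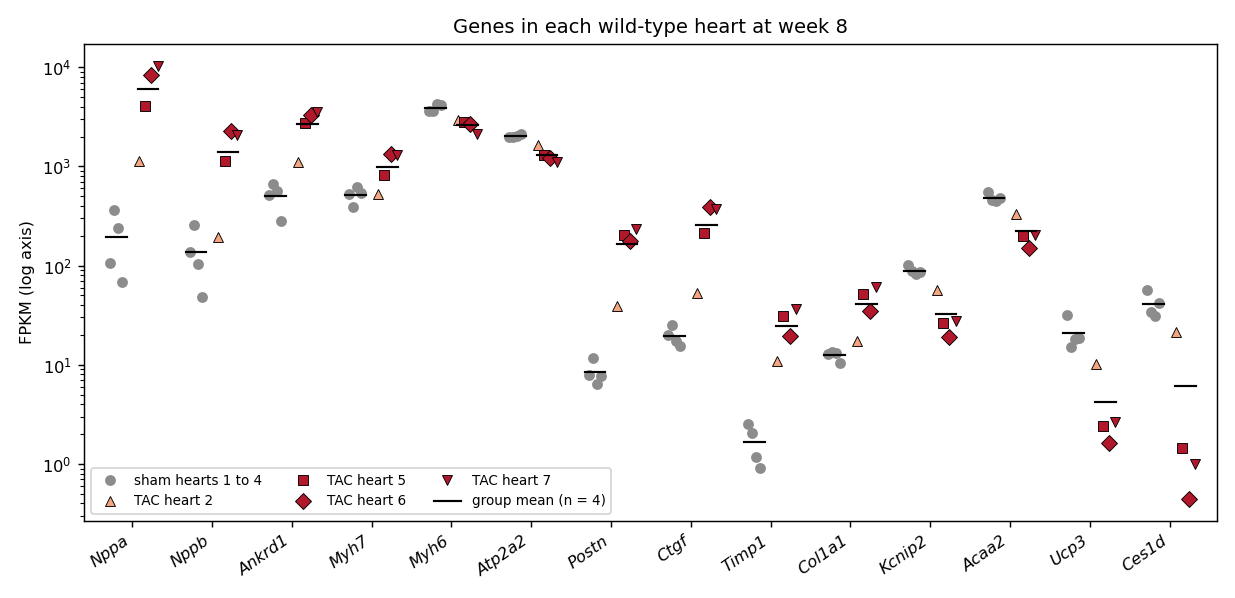
FPKM of single genes in the 8 wild type hearts of week 8 on a log axis, 1 point per heart with a bar at the group mean. Nppa lay between 68.8 and 367 FPKM in sham and between 1139 and 10365 FPKM in TAC hearts, and TAC heart 2 was the TAC heart closest to the sham hearts for it.

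Of the 19 tested genes of the fetal and stress gene program, 12 rose and none fell, with a median of 0.86. Without heart 2, 13 rose, and without heart 5, 10 rose. Ankrd1 was at 512, 670.4, 563 and 279 FPKM in sham and 1117, 2738, 3292 and 3565 FPKM in TAC hearts (log2 difference 2.34 ± 0.49, adjusted p = 4.99e-04). No TAC heart overlapped the sham hearts. Xirp2, an actin-binding protein of the intercalated disc, was at 80.2, 85.1, 87.1 and 72.8 FPKM in sham and 186, 229.7, 312 and 371 FPKM in TAC hearts (log2 difference 1.70 ± 0.31, adjusted p = 8.74e-05), and Fhl1, a LIM protein of the sarcomere, was at 47.1, 43.4, 45.2 and 42.4 and 77.7, 135, 287 and 206 FPKM (log2 difference 1.80 ± 0.34, adjusted p = 1.89e-04). Csrp3, the muscle LIM protein of the Z-disc, rose by 0.82 ± 0.14 and Des, which encodes desmin, by 0.73 ± 0.22 (adjusted p = 7.24e-05 and 0.0168). Gdf15, a secreted stress cytokine, was below 1 FPKM in every sham heart and at 1.22, 2.68, 6.29 and 13 FPKM in TAC hearts (log2 difference 1.86 ± 0.54, adjusted p = 0.0124). Without TAC heart 6 or 7 the rises of Des and Gdf15 were no longer called. Sprr1a, a small proline-rich protein induced by stress, was near 0 in sham and at 0.309, 13.3, 12.1 and 19.1 FPKM in TAC hearts, again lowest in heart 2 (log2 difference 2.99 ± 0.73, adjusted p = 0.00289).

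The myosin heavy chain isoforms differed in how far heart 2 followed the other TAC hearts. Myh7, the slow fetal myosin heavy chain, was at 523, 394, 622 and 540.2 FPKM in sham and 529, 821, 1342 and 1295 FPKM in TAC hearts. Heart 2 lay within the sham range, and the difference of 0.86 ± 0.36 did not pass the test (adjusted p = 0.091) but did without heart 2 (1.13, adjusted p = 0.0241). Myh6, the fast adult isoform, was at 3580, 3624, 4252 and 4116 FPKM in sham and 2901, 2780, 2660 and 2118 FPKM in TAC hearts. All 4 TAC hearts lay below all sham hearts (log2 difference -0.58, exact permutation p = 0.0286, two-sided). The 64-heart model, in which Myh6 is listed at 0 in some libraries of other groups, gave an SE of 1.83 and an adjusted p of 0.886, while a model of these 8 hearts alone gave an SE of 0.12 and an adjusted p of 0.0199. The Myh6 and Myh7 transcripts are close copies, and how reads common to both were divided is not given in the sources used here. Of 18 sarcomere subunits, 2 rose and none fell, where 10.3% of all genes rose. These were Mybpc3, cardiac myosin binding protein C (879 ± 76.9 FPKM in sham and 1228 ± 112 FPKM in TAC hearts, log2 difference 0.48 ± 0.15, adjusted p = 0.0227), and Myom2, a protein of the M-band (353 ± 84.3 FPKM in sham and 600.5 ± 142 FPKM in TAC hearts, log2 difference 0.77 ± 0.24, adjusted p = 0.0229). Each of these calls was lost in 4 of 8 fits with a heart left out, and that of Mybpc3 also under quantile normalization with or without TAC heart 2 (adjusted p up to 0.169). Tnni3, cardiac troponin I, was lower in every TAC heart, at 3616, 2745, 2801 and 2782 FPKM against 4755, 4248, 4316 and 4200 FPKM in sham hearts, and missed the threshold (-0.56 ± 0.21, adjusted p = 0.0647), which it passed without heart 2 (adjusted p = 0.0351). Leaving Myh6, Tnni3 and the 2 rises aside, the largest difference among the other 14 subunits was 0.39 in Myom1.

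Of 21 calcium cycling genes, 2 rose and 3 fell, against 10.3% and 6.12% of all genes. The count that rose was 1 under quantile normalization, without heart 5 and in a model of the 8 hearts alone. Atp2a2 encodes SERCA2, the pump that returns calcium to the sarcoplasmic reticulum. It was at 1986, 1994, 2043 and 2123 FPKM in sham and 1650, 1309, 1206 and 1098 FPKM in TAC hearts. Every TAC heart was lower, heart 2 the least (log2 difference -0.65 ± 0.25, adjusted p = 0.0632), and the difference passed the test without heart 2 (adjusted p = 0.0326) or in a model of the 8 hearts alone (adjusted p = 0.0153). Pln, phospholamban, the inhibitor of that pump, was at 2199, 2142, 1968 and 2277 FPKM in sham and 1795, 1507, 1461 and 1494 FPKM in TAC hearts. It fell by 0.46 ± 0.15 (adjusted p = 0.0224) and was not called under quantile normalization or in 5 of 8 fits with a heart left out. Hrc, a calcium-binding protein of the sarcoplasmic reticulum, was at 405, 389, 392 and 402 FPKM in sham and 301, 191, 167 and 198 FPKM in TAC hearts and fell by 0.92 ± 0.19 (adjusted p = 3.63e-04). Casq2, the main calcium store protein, moved the other way, from 361 ± 27.7 to 647 ± 110.2 FPKM (log2 difference 0.82 ± 0.22, adjusted p = 0.0063). Camk2b, a calcium-dependent kinase, fell by 0.68 ± 0.16 (adjusted p = 0.00242). Ryr2, the calcium release channel, did not pass the test, at 101 ± 10.8 FPKM in sham and 80.9 ± 9.77 FPKM in TAC hearts (adjusted p = 0.488). Every TAC heart nevertheless lay below every sham heart, narrowly so, at 68.7 to 92.5 FPKM against 92.7 to 117 FPKM.

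Of 16 tested potassium channel genes, 8 fell and none rose, with a median of -0.38, where 6.12% of all genes fell. In 10 of the 16 every TAC heart lay below every sham heart, as it did for 7.47% of all genes. Kcnip2 encodes the KChIP2 subunit, which the fast transient outward current of mouse cardiomyocytes requires. It was at 101, 88.7, 81.8 and 85.5 FPKM in sham and 56.5, 26.2, 19 and 27.6 FPKM in TAC hearts (log2 difference -1.55 ± 0.25, adjusted p = 2.24e-05). The fall was largest in heart 6 and smallest in heart 2. Kcnd2, the pore subunit of the same current, was at 5.19, 4.9, 2.49 and 4.77 FPKM in sham and 2.26, 0.985, 0.985 and 1.1 FPKM in TAC hearts (log2 difference -1.19 ± 0.24, adjusted p = 3.00e-04). Abcc9, the sulfonylurea receptor subunit of the ATP-sensitive channel, was tightly set at 55, 56.7, 54.8 and 56.2 FPKM in sham hearts and was at 41.5, 26.5, 23.3 and 24.2 FPKM in TAC hearts (log2 difference -0.96 ± 0.20, adjusted p = 5.21e-04). Kcnv2, a modifying subunit, fell by 1.09 ± 0.16 (adjusted p = 4.72e-06). Kcnj3 (-1.16) and Kcnj5 (-0.66), which together form the acetylcholine-gated channel, Kcnj2 (-0.64), an inward rectifier, and Kcnh2 (-0.55) fell as well. Kcnq1 (0.022), Kcnd3 (-0.20) and Kcnj12 (-0.075) did not pass the test.

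Scn4b, a sodium channel beta subunit, was at 13.6, 13, 14 and 17.5 FPKM in sham hearts and at 14, 3.31, 2.91 and 3.0 FPKM in TAC hearts, so that heart 2 lay among the sham hearts and the other 3 far below (log2 difference -1.45 ± 0.43, adjusted p = 0.0147). Its call was lost without TAC heart 5, 6 or 7 (adjusted p between 0.0536 and 0.0713). Hcn2, a pacemaker channel, fell by 0.88 ± 0.19 and Gjc1, the gap junction protein connexin 45, rose by 0.65 ± 0.15 (adjusted p = 7.51e-04 and 0.00164). Gja1 (-0.24), connexin 43, did not pass the test. Of 19 genes of adrenergic signalling, 3 rose and 3 fell, where 10.3% and 6.12% of all genes did. Without heart 2, 4 rose and 3 fell, and without heart 5, 2 rose and 2 fell. Grk5, a kinase that desensitises adrenergic receptors, was at 5.35, 5.07, 4.89 and 5.36 FPKM in sham and 6.02, 15.1, 17.1 and 17.3 FPKM in TAC hearts (log2 difference 1.17 ± 0.21, adjusted p = 1.01e-04). Prkar1a, a regulatory subunit of protein kinase A, rose by 0.89 ± 0.23, with heart 2 within the sham range. The α1 receptor genes Adra1b (-1.01 ± 0.27, adjusted p = 0.00661) and Adra1a (-0.80 ± 0.26, adjusted p = 0.0266) and the cAMP phosphodiesterase Pde4d (-0.61 ± 0.14, adjusted p = 0.0014) fell. Adrb1, the main β receptor of the heart, was at 7.13, 6.06, 6.18 and 6.54 FPKM in sham and 5.29, 4.88, 4.16 and 4.58 FPKM in TAC hearts. The groups did not overlap, but the difference of -0.39 ± 0.21 was not called (adjusted p = 0.232).

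Matrix genes rose broadly. Of 19 collagen genes 12 rose and none fell (median 1.05), of 16 genes of collagen maturation and crosslinking 9 rose and none fell (0.86), of 21 matricellular and activated fibroblast genes 14 rose and none fell (1.24), of 20 genes of elastic fibres and small proteoglycans 14 rose and 1 fell (1.25), and of 16 proteases and inhibitors 9 rose and 1 fell (1.07). The corresponding share of all genes was 10.3% higher. Without heart 2, 14, 10, 15, 16 and 11 genes of these lists rose, in the same order. Without heart 5, 10, 8, 13, 12 and 8 rose. Over all genes these fits gave 1810 and 1071 rises. Postn encodes periostin, which activated fibroblasts secrete. It was at 7.9, 11.8, 6.36 and 7.74 FPKM in sham and 39.3, 205, 178 and 236 FPKM in TAC hearts (log2 difference 3.89 ± 0.53, adjusted p = 1.61e-06). All 4 TAC hearts were above the sham hearts, heart 2 by the least. Cilp, a secreted matrix protein that binds TGF-β, was at 1.79, 1.01, 0.489 and 0.854 FPKM in sham and 7.34, 53, 27.4 and 93.7 FPKM in TAC hearts (log2 difference 4.06 ± 0.60, adjusted p = 6.40e-06). Comp and Thbs4, which encode thrombospondins 5 and 4, were at 1.57, 47.9, 33.3 and 107 FPKM and at 6.52, 36.5, 32.3 and 67.7 FPKM in TAC hearts, against less than 2 FPKM in every sham heart (log2 differences 4.02 ± 0.84 and 3.68 ± 0.60). Ctgf, a growth factor that binds matrix, was at 19.8, 25.2, 17.2 and 15.4 FPKM in sham and 53.5, 215, 387 and 372 FPKM in TAC hearts (log2 difference 3.34 ± 0.52, adjusted p = 9.95e-06). Spp1, osteopontin, rose from 0.215 ± 0.0767 to 7.57 ± 6.42 FPKM (log2 difference 2.35 ± 0.62, adjusted p = 0.00548).

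The collagen chains had smaller log2 differences than the secreted proteins just given, with no test between genes. Col1a1, a chain of collagen I, was at 12.8, 13.6, 13.2 and 10.3 FPKM in sham and 17.5, 52, 35.1 and 60.3 FPKM in TAC hearts (log2 difference 1.52 ± 0.43, adjusted p = 0.0104), and Col3a1, the chain of collagen III, was at 22.4, 22.1, 19.2 and 16.4 and 28.6, 73.5, 44.8 and 112 FPKM (log2 difference 1.47 ± 0.43, adjusted p = 0.0138). In both, heart 2 was just above the sham hearts, and in both the call was lost without TAC heart 7. Col8a1 (2.25 ± 0.36), Col12a1 (2.07 ± 0.44) and Col5a2 (2.05 ± 0.38), of the network, fibril-associated and fibrillar classes, had the largest rises of the list. Col4a2, a chain of the basement membrane, rose by 1.05 ± 0.23. Among the enzymes that mature collagen, Lox, lysyl oxidase, which crosslinks collagen and elastin, was at 0.907, 1.01, 1.05 and 0.807 FPKM in sham and 3.1, 11.8, 18.7 and 18.5 FPKM in TAC hearts (log2 difference 2.62 ± 0.46, adjusted p = 6.82e-05). Its relative Loxl2 (1.55 ± 0.30), the prolyl hydroxylase Leprel1 (1.30 ± 0.19) and the procollagen protease enhancer Pcolce2 (1.06 ± 0.17) rose too.

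Microfibril and proteoglycan genes were among the 15 largest rises. Mfap5, a microfibril protein, was at 13.9, 14.9, 13.7 and 8.15 FPKM in sham and 52.3, 143, 131 and 199.6 FPKM in TAC hearts (log2 difference 3.16 ± 0.37, adjusted p = 3.32e-07). Ltbp2, which binds fibrillin microfibrils, was at 0.881, 0.706, 1.29 and 0.591 FPKM in sham and 5.1, 28.8, 32.5 and 39.7 FPKM in TAC hearts (log2 difference 3.59 ± 0.56, adjusted p = 9.95e-06). Mfap4 (2.88 ± 0.54), the proteoglycan biglycan (Bgn, 2.30 ± 0.36) and fibulin 2 (Fbln2, 1.77 ± 0.23) followed. Prg4, the lubricating proteoglycan of joints, was at 3.98, 2.59, 3.48 and 3.84 FPKM in sham and 15.2, 79, 31.6 and 32.4 FPKM in TAC hearts, highest in heart 5 (log2 difference 2.96 ± 0.43, and 2.55 without heart 5). The gene that fell was Efemp1, which encodes fibulin 3 and is named because it is the exception of its list. It was at 2.46, 4.66, 2.6 and 3.85 FPKM in sham and 2.42, 1.46, 0.608 and 0.507 FPKM in TAC hearts (log2 difference -1.02 ± 0.27, adjusted p = 0.00578). Timp1, an inhibitor of matrix metalloproteinases, was at 2.55, 2.05, 1.18 and 0.913 FPKM in sham and 10.9, 31.2, 19.5 and 36.1 FPKM in TAC hearts (log2 difference 3.17 ± 0.62, adjusted p = 2.59e-04). The secreted protein Adamtsl2 (2.40 ± 0.35), the protease Adamts1 (1.26 ± 0.20) and the plasminogen activator Plat (0.98 ± 0.21) rose, while Plau, the other plasminogen activator, fell by 0.33 ± 0.12 (adjusted p = 0.0374), a call lost in 5 of 8 fits with a heart left out.

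**Figure D2:**
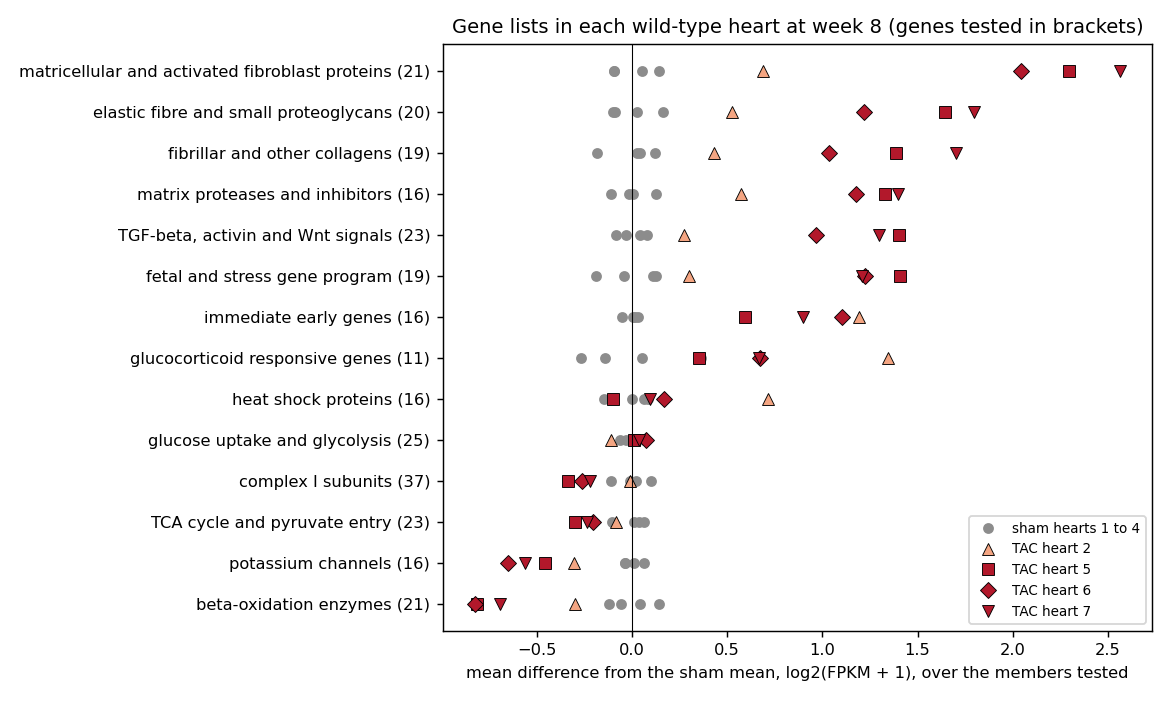
Mean log2 difference from the sham mean over the tested genes of each list, 1 point per heart. For the matricellular list the TAC hearts stood at 0.69, 2.30, 2.04 and 2.56 in heart order 2, 5, 6 and 7, and for β-oxidation enzymes at -0.30, -0.82, -0.83 and -0.69.

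Of 23 genes of TGF-β, activin and Wnt signalling, 17 rose and none fell (median 0.70), and 10 were called without TAC heart 5. All 3 TGF-β ligands rose, Tgfb2 (1.73 ± 0.37) by more than Tgfb3 (1.00 ± 0.32) and Tgfb1 (0.70 ± 0.19) on this scale, with no test between them. Fstl3, which binds and blocks activin, was at 1.89, 2.59, 2.51 and 1.58 FPKM in sham and 4.08, 11.3, 16.3 and 15.1 FPKM in TAC hearts (log2 difference 1.89 ± 0.28, adjusted p = 5.63e-06), and Smad7, an inhibitor of TGF-β signalling inside the cell, rose by 0.81 ± 0.14. Fstl1, a secreted glycoprotein, rose by 1.86 ± 0.31. Frzb and Dkk3 encode secreted modifiers of Wnt signals. Frzb was at 2.3, 2.01, 1.43 and 1.45 FPKM in sham and 4.56, 16.6, 12.3 and 16.2 FPKM in TAC hearts (log2 difference 2.14 ± 0.39, adjusted p = 1.00e-04). Dkk3, which is also an atrial marker in the list used here, was at 0.745, 0.819, 0.523 and 0.327 FPKM in sham and 1.86, 33.5, 13.2 and 19.6 FPKM in TAC hearts. It was highest in heart 5, where some other atrial genes were high. The log2 difference of 3.03 ± 0.63 was 2.56 without that heart (adjusted p = 5.56e-04 and 0.00731 in limma).

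Of 11 genes of the angiotensin, endothelin and apelin systems, 4 rose and 1 fell, where 10.3% and 6.12% of all genes did. The count that fell was 2 under either of the other scalings or without heart 5. Ace, angiotensin-converting enzyme, was at 12, 15.9, 13.6 and 16 FPKM in sham and 30.3, 43, 38.3 and 41.1 FPKM in TAC hearts (log2 difference 1.35 ± 0.22, adjusted p = 2.59e-05). Edn3, which encodes an endothelin peptide, was at 0.614, 0.403, 1.09 and 1.12 FPKM in sham and 6.8, 5.42, 4.81 and 7.45 FPKM in TAC hearts (log2 difference 1.99 ± 0.26, adjusted p = 5.83e-07). Heart 2 lay among the other TAC hearts here. Ednrb, an endothelin receptor, rose by 0.91 ± 0.16 and Agt, angiotensinogen, by 0.84 ± 0.27, while Edn1 (0.32), Ednra (0.21) and Agtr1a (-0.43) did not pass the test. Apln encodes apelin, a peptide that raises contractility and dilates vessels. It was at 6.34, 7.8, 5.08 and 6.35 FPKM in sham and 2.2, 1.07, 0.67 and 1.34 FPKM in TAC hearts (log2 difference -1.70 ± 0.27, adjusted p = 1.19e-05). Every TAC heart lay below every sham heart, heart 2 included. Outside these lists, the acute phase protein gene Serpina3n (5.24 ± 1.52 FPKM in sham and 87.3 ± 33.3 FPKM in TAC hearts, log2 difference 3.75 ± 0.50, adjusted p = 1.22e-06) was among the 15 largest rises.

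Genes of fatty acid oxidation fell. Of 21 β-oxidation genes 13 fell and none rose, with a median of -0.56, in a comparison in which 6.12% of genes fell. Without heart 2, 16 fell, and without heart 5, 11 fell, where 1121 and 580 of all genes did. Acaa2, the thiolase of the last step of the mitochondrial spiral, was at 550.4, 461, 445 and 484 FPKM in sham and 331, 199.7, 149 and 205 FPKM in TAC hearts (log2 difference -1.18 ± 0.24, adjusted p = 3.93e-04). All 4 TAC hearts were lower, heart 2 the least. Hadh, the short-chain dehydrogenase, was at 353, 318, 283 and 328 FPKM in sham and 237, 156, 143 and 165 FPKM in TAC hearts (log2 difference -0.89 ± 0.18, adjusted p = 3.61e-04). The subunits of the trifunctional protein, Hadha (-0.67 ± 0.15) and Hadhb (-0.56 ± 0.12), fell as well. Ucp3, a mitochondrial carrier protein, had the largest fall of the list, from 31.5, 15, 18.2 and 18.8 FPKM in sham to 10.3, 2.44, 1.63 and 2.68 FPKM in TAC hearts (log2 difference -2.26 ± 0.57, adjusted p = 0.00361). Of the 4 acyl-CoA dehydrogenases of the list, the short-chain enzyme Acads fell (-0.49 ± 0.13) and the others were not called. Acadm, the medium-chain enzyme, was at 452, 421, 398 and 453 FPKM in sham and 375, 309.7, 333 and 322 FPKM in TAC hearts, below every sham heart but with an adjusted p of 0.118 (log2 difference -0.36 ± 0.16).

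Of 16 genes of fatty acid uptake and the carnitine shuttle, 3 fell and none rose (median -0.32), where 6.12% of all genes fell. The count was 6 once the libraries were rescaled in either way and 7 in a model of the 8 hearts alone. Over all genes, 1268 fell with median-of-ratios scaling, 1470 under quantile normalization and 842 in the model of 8 hearts. The 3 called with all hearts in the 64-heart model were Cpt2, the inner carnitine palmitoyltransferase (101, 88, 89.6 and 95.6 FPKM in sham and 77.3, 44, 38 and 51.4 FPKM in TAC hearts, log2 difference -0.86 ± 0.19, adjusted p = 8.38e-04), the carnitine transporter Slc22a5 (-0.78 ± 0.17) and carnitine acetyltransferase, Crat (-0.73 ± 0.17). Cpt1b, the rate-setting outer enzyme of muscle, was at 234, 228, 207 and 205 FPKM in sham and 176, 157, 174 and 180.0 FPKM in TAC hearts and missed the threshold (-0.35 ± 0.13, adjusted p = 0.0622). Cd36, the fatty acid transporter of the cell surface, was at 473 ± 28.5 FPKM in sham and 463 ± 33.8 FPKM in TAC hearts (log2 difference -0.030 ± 0.12). The regulators of these genes mostly did not pass the test. Ppara was at 12.5 ± 2.33 FPKM in sham and 11.3 ± 2.79 FPKM in TAC hearts (adjusted p = 0.864), Esrra at 62.4 ± 3.8 FPKM in sham and 55.1 ± 9.07 FPKM in TAC hearts (adjusted p = 0.344) and Ppargc1a, the PGC-1α coactivator, at 29.5, 28.1, 26.5 and 25.6 FPKM in sham and 39.5, 16.7, 18.6 and 17.8 FPKM in TAC hearts (adjusted p = 0.709). For Ppargc1a, heart 2 was above every sham heart and the other 3 TAC hearts were below every sham heart. Of the 21 regulators 3 fell, the retinoid X receptors Rxrg (-0.62 ± 0.14) and Rxra (-0.38 ± 0.10) and the pyruvate dehydrogenase kinase Pdk2 (-0.62 ± 0.14). Pdk4, a related kinase that fasting and glucocorticoids induce, was at 113, 69.2, 100.5 and 65.7 FPKM in sham and 145, 26.7, 48.2 and 44.6 FPKM in TAC hearts, highest in heart 2 (adjusted p = 0.616).

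Of 37 complex I genes 2 fell and none rose (median -0.20), a share near the 6.12% of all genes. These were Ndufa3 (-0.53 ± 0.19, adjusted p = 0.043) and Ndufa9 (-0.27 ± 0.093, adjusted p = 0.0388), and both calls were lost in 6 or more of 8 fits with a heart left out. The count was 8 without heart 2, 0 without heart 5, 4 with median-of-ratios scaling, 12 under quantile normalization and 9 in a model of the 8 hearts alone. Over all genes, 1121, 580, 1268, 1470 and 842 fell in these settings, in the same order. The estimate was negative for 33 of the 37. Of 41 nuclear genes of complexes II to V, 5 fell (median -0.20), and 9 under quantile normalization or in the model of 8 hearts. Cox7a1, the muscle form of a cytochrome oxidase subunit, was at 2926, 2363, 2123 and 2480 FPKM in sham and 1941, 1023, 1147 and 1237 FPKM in TAC hearts (log2 difference -0.92 ± 0.22, adjusted p = 0.00197). Sdha, of complex II, fell by 0.53 ± 0.13 and Uqcrc1, of complex III, fell by 0.45 ± 0.11. Of 23 genes of the TCA cycle and pyruvate entry 6 fell (median -0.26), among them Suclg2, a succinate-CoA ligase subunit (-0.37 ± 0.11, adjusted p = 0.0132), and 1 was called without heart 5.

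Of 25 genes of glucose uptake and glycolysis, 3 rose and 6 fell (median 0.13). The rises were near the 10.3% of all genes, and 7 genes rose without heart 2, where 13.3% of all genes did. The background of falls was 6.12%. Slc2a4, the insulin-responsive glucose transporter GLUT4, was at 185, 191, 172 and 182 FPKM in sham and 148, 103, 112 and 104 FPKM in TAC hearts (log2 difference -0.65 ± 0.14, adjusted p = 7.14e-04). Slc2a1, the transporter GLUT1, was at 6.4, 7.47, 6.95 and 7.85 FPKM in sham and 6.83, 11.2, 12.3 and 12.6 FPKM in TAC hearts, with heart 2 within the sham range, and was not called unless heart 2 was left out or the libraries were rescaled (0.49 ± 0.19, adjusted p = 0.0593, and 0.0072 without heart 2). Pfkp, the platelet form of phosphofructokinase, was at 18.6, 19.8, 18.2 and 16.9 FPKM in sham and 19.2, 51.3, 58.8 and 58.2 FPKM in TAC hearts (log2 difference 1.18 ± 0.26, adjusted p = 0.00116), while the muscle form Pfkm fell by 0.50 ± 0.13. Pygm, muscle glycogen phosphorylase, fell by 0.47 ± 0.091 (adjusted p = 2.66e-04). The genes Pfkfb1 (-1.55 ± 0.28) and Fbp2 (-1.51 ± 0.32), for a regulator of phosphofructokinase and a muscle fructose bisphosphatase, were among the 15 largest falls. Ces1d, a carboxylesterase that hydrolyses lipids, was the largest of them, at 57, 34, 31.3 and 42.1 FPKM in sham and 21.5, 1.45, 0.445 and 0.996 FPKM in TAC hearts (log2 difference -3.53 ± 0.54, adjusted p = 9.95e-06). Heart 2 kept more than 20 FPKM where the other 3 TAC hearts were below 2 FPKM.

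Of 22 genes of ketone, branched-chain amino acid and creatine use, 2 rose and 8 fell, where 10.3% and 6.12% of all genes did. Without heart 5, 1 rose and 5 fell, and 1 rose under either of the other scalings or in a model of the 8 hearts alone. Bdh1, which oxidises the ketone body β-hydroxybutyrate, was at 134, 93.4, 103 and 165 FPKM in sham and 177, 185, 259 and 218 FPKM in TAC hearts (log2 difference 0.77 ± 0.24, adjusted p = 0.0181). The groups did not overlap, and the call was lost in 4 of 8 fits with a heart left out. Ckm, muscle creatine kinase, was at 1538, 1476, 1406 and 1446 FPKM in sham and 1439, 904, 906 and 926 FPKM in TAC hearts and fell by 0.52 ± 0.15 (adjusted p = 0.0125), with heart 2 inside the sham range. Its call was lost without TAC heart 5, 6 or 7 and in a model of the 8 hearts alone (adjusted p between 0.0501 and 0.062). The brain form Ckb rose by 0.63 ± 0.23. Genes of branched-chain amino acid breakdown made up 6 of the 8 falls, among them Mccc1, a carboxylase of leucine breakdown (-0.43 ± 0.093, adjusted p = 9.89e-04), Dbt (-0.64 ± 0.17) and Bckdhb (-0.60 ± 0.19). Of 14 genes of NAD synthesis and use, 2 rose and 4 fell, where 10.3% and 6.12% of all genes did. Without heart 5, 1 rose. Nmrk2, a nicotinamide riboside kinase of muscle, was at 1.87, 4.18, 2.01 and 2.11 FPKM in sham and 3.02, 19.8, 59 and 45.3 FPKM in TAC hearts (log2 difference 2.68 ± 0.66, adjusted p = 0.00326). Nampt, which makes NAD from nicotinamide, was at 47.2, 43.3, 35.2 and 48.4 FPKM in sham and 38.4, 20.2, 17.9 and 21.6 FPKM in TAC hearts (log2 difference -0.86 ± 0.21, adjusted p = 0.00274). For both, heart 2 lay within the sham range. The NAD synthase Nmnat3 (-0.42 ± 0.11) and the NAD consumer Parp1 (-0.49 ± 0.13) fell.

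Immediate early genes, which signals induce within minutes, rose at this late week. Of 16 tested 11 rose and none fell (median 0.89), and 10 rose without heart 2. Nr4a1, an orphan nuclear receptor, was at 4.29, 2.94, 4.68 and 2.13 FPKM in sham and 32, 7.99, 17.4 and 15.6 FPKM in TAC hearts (log2 difference 1.98 ± 0.40, adjusted p = 3.55e-04). Junb, an AP-1 subunit, was at 4.87, 3.72, 3.61 and 3.83 FPKM in sham and 12.4, 8.66, 13.2 and 12.4 FPKM in TAC hearts (log2 difference 1.33 ± 0.29, adjusted p = 7.86e-04). Neither rested on heart 2. Klf4 (1.19 ± 0.22) and Btg2 (1.18 ± 0.23) rose in every TAC heart above every sham heart. Fos, named after its values were seen, was at 0.666, 0.686, 0.544 and 0.216 FPKM in sham and 9.84, 1.19, 2.87 and 1.44 FPKM in TAC hearts. Its call (adjusted p = 0.0167) was lost in 5 of the alternative settings, among them without heart 2 (adjusted p = 0.131) and without sham heart 4. Of 16 genes of the integrated stress response 3 rose and none fell, with 10.3% of all genes rising, and the counts were 5 and 1 without heart 2, 4 and 1 with median-of-ratios scaling, 3 and 2 with quantile normalization and 5 and 0 in a model of the 8 hearts alone. Those called with all hearts were the transcription factors Atf3 (1.54 ± 0.34), Atf4 (0.89 ± 0.18) and Atf5 (0.87 ± 0.22). The amino acid and folate genes Asns (0.17), Psat1 (-0.10) and Mthfd2 (0.81) did not pass the test, nor did Trib3 (0.26). Atf4 was at 31.8, 33.1, 29 and 32.3 FPKM in sham and 54.7, 41.6, 78.4 and 68.7 FPKM in TAC hearts.

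Of 21 antioxidant genes 6 rose and 2 fell, where 10.3% and 6.12% of all genes did. Without heart 5, 1 fell. Nox4, an oxidase that makes hydrogen peroxide, was below 0.5 FPKM in every sham heart and at 0.789, 4.77, 3.99 and 5.69 FPKM in TAC hearts (log2 difference 1.76 ± 0.34, adjusted p = 1.91e-04). Gpx3, a secreted glutathione peroxidase, rose by 1.31 ± 0.33, Sod3, extracellular superoxide dismutase, by 0.85 ± 0.23 (adjusted p = 0.00614) and Srxn1, sulfiredoxin, by 0.62 ± 0.17. The call of Sod3 was lost without TAC heart 5 or 7 and in a model of the 8 hearts alone (adjusted p between 0.0517 and 0.0791). That of Srxn1 was lost without TAC heart 6 (adjusted p = 0.064). The mitochondrial enzymes Sod2 (-0.43 ± 0.13) and Prdx3 (-0.37 ± 0.12) fell. Of 16 heat shock genes 3 rose and 2 fell with all hearts and 1 rose and 3 fell without heart 2. The shares of all genes without heart 2 were 13.3% higher and 8.21% lower. Hspb7, a small heat shock protein of heart muscle, was at 675, 709, 823 and 669 FPKM in sham and 1000, 1174, 1506 and 1304 FPKM in TAC hearts (log2 difference 0.78 ± 0.20, adjusted p = 0.00393), and Hspd1, the mitochondrial chaperonin HSP60, fell by 0.68 ± 0.18. Hspa1a, an inducible HSP70, was at 13.6, 1.45, 4.52 and 1.83 FPKM in TAC hearts against 0.795, 0.725, 1.33 and 0.663 FPKM in sham hearts. Its call (adjusted p = 0.0247) was lost in 8 of the alternative settings, among them without heart 2 (adjusted p = 0.175) and without TAC heart 6. The reads of Hspa1a cannot be told from those of the nearly identical Hspa1b.

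Cdkn1a, which encodes the cell cycle inhibitor p21, was at 6.17, 5.54, 10.8 and 6.42 FPKM in sham and 34.6, 25.7, 59.2 and 37.7 FPKM in TAC hearts (log2 difference 2.27 ± 0.40, adjusted p = 5.84e-05). It was the only gene of 18 cell cycle genes that rose, and Mcm2, a replication helicase, the only one that fell (-0.48 ± 0.15), with a median of -0.015. Over all genes, 10.3% rose and 6.12% fell. Lcn2, a siderophore-binding protein induced in inflammation, was at 1.45, 0.938, 2.49 and 0.845 FPKM in sham and 19.2, 10.7, 12.8 and 10.5 FPKM in TAC hearts (log2 difference 2.56 ± 0.60, adjusted p = 0.00183). Of 11 genes that respond to glucocorticoids 3 rose, Cdkn1a and Lcn2 among them, where 10.3% of all genes rose. The call of the third, Fkbp5 (1.32 ± 0.46, adjusted p = 0.0417), was lost in 11 of the alternative settings. These included the fits without heart 2 (adjusted p = 0.134), under quantile normalization and of the 8 hearts alone. Of 16 clock genes 3 rose and 3 fell, where 10.3% and 6.12% of all genes did. Without heart 2, 5 rose and 5 fell, where 13.3% and 8.21% of all genes did. Arntl, the clock activator BMAL1, was at 0.598, 0.477, 0.341 and 0.47 FPKM in sham and 0.728, 2.12, 3.48 and 2.49 FPKM in TAC hearts (log2 difference 1.05 ± 0.34, adjusted p = 0.0255), and Bhlhe40 rose by 1.15 ± 0.24. The clock output factors Hlf (-0.92 ± 0.24) and Tef (-0.64 ± 0.20) fell. The hour at which each heart was taken is not given in the labels, and its part in these values was not tested. Without heart 5, 1 clock gene rose and 1 fell. The call of Tef was lost without TAC heart 5, 6 or 7 (adjusted p between 0.0518 and 0.0823). That of Arntl was lost in the same fits and without sham heart 3 or 4 (adjusted p between 0.0525 and 0.127). That of Hlf was lost without TAC heart 6 (adjusted p = 0.0667).

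Of 20 cardiac transcription factors none rose and 1 fell, where 10.3% and 6.12% of all genes did, and 1 rose without heart 2 or in a model of the 8 hearts alone. Hopx, a homeodomain protein that does not itself bind DNA, was at 202, 168, 177 and 158 FPKM in sham and 133, 78.3, 50.1 and 68.5 FPKM in TAC hearts (log2 difference -1.17 ± 0.23, adjusted p = 2.94e-04). Gata4 (0.25), Nkx2-5 (0.25), Tbx5 (-0.20) and Mef2c (0.022) did not pass the test. Further genes among the 15 largest falls were Mylk4, a muscle kinase of the myosin light chain kinase family (54.9 ± 9.87 FPKM in sham and 18.1 ± 11.7 FPKM in TAC hearts, log2 difference -1.70 ± 0.33), Lrrc15 (-1.69 ± 0.29), the centrosomal gene Cep128 (-1.65 ± 0.27), Penk, which encodes enkephalin peptides (-1.58 ± 0.30), the secreted phospholipase Pla2g5 (-1.56 ± 0.32), 2310010M20Rik (-1.56 ± 0.27) and the lipid-transfer gene Stard10 (-1.47 ± 0.23). All 4 TAC hearts were below all sham hearts in each of the genes just named. Scarna17, a small nuclear RNA gene that met the same rule, was listed at 0 in all 4 TAC hearts and in sham heart 4, so no change is given.

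Cell type markers changed unevenly, and their counts stand against 10.3% of all genes higher and 6.12% lower. Of 12 fibroblast markers 7 rose and none fell (median 0.83), with 8 rises without heart 2 and 6 without heart 5. Dcn, decorin, was at 179, 202, 159.8 and 177 FPKM in sham and 266, 463, 328 and 447 FPKM in TAC hearts (log2 difference 1.03 ± 0.23), and Islr rose by 1.42 ± 0.33. Pdgfra, a receptor that resident fibroblasts carry, rose by 0.52 ± 0.16, while Tcf21 (0.61), Ddr2 (0.14) and Thy1 (0.077) did not pass the test. The summed level of the 12 markers was 274 to 351 FPKM in sham and 492 to 1197 FPKM in TAC hearts. Of these markers, Col1a1, Col3a1, Postn, Mfap5, Dcn and Lum are also members of the matrix lists. The lists therefore share genes and are not independent of each other. The part of fibroblasts in the matrix results was not tested. None of 12 endothelial markers passed the test (median 0.17). Of 20 macrophage and monocyte markers 1 rose, Lgals3, galectin 3 (2.24, 2.61, 1.5 and 2.23 FPKM in sham and 3.69, 10.3, 7.57 and 8.05 FPKM in TAC hearts, log2 difference 1.36 ± 0.42, adjusted p = 0.0197). The call of Lgals3 was lost without sham heart 3 and without TAC heart 5, 6 or 7 (adjusted p between 0.056 and 0.0782). The summed level of the macrophage and monocyte list was 156 to 229.6 FPKM in sham and 177 to 276 FPKM in TAC hearts, so the groups overlapped. Genes of antigen presentation had a median of -0.38, with none of 9 called, and Cd74, the invariant chain, was at 63.7 ± 16.1 FPKM in sham and 43.5 ± 15.5 FPKM in TAC hearts. None of the 4 lymphocyte, 3 neutrophil and 5 erythroid markers tested passed the test. The list of ventricular markers had 1 call in 8, Pln (none under quantile normalization or without heart 5, 2 without heart 2 and 3 in a model of the 8 hearts alone), and that of atrial markers 2 rises and 1 fall in 7, in Nppa, Dkk3 and Stard10. Of 12 smooth muscle and pericyte markers Des rose and Smtn fell (-0.41 ± 0.10). Of the 3 adipocyte, 6 skeletal muscle and 4 cartilage and valve markers tested, Cidea (0.41 ± 0.13), Sox9 (0.87 ± 0.21), Comp and Chrd (0.23 ± 0.074) rose and Ckm fell, and the single thymus and epicardium markers tested did not pass.

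Atrial genes varied between the TAC hearts. Over the 7 tested atrial genes the mean log2 difference from the sham mean was 0.63, 3.51, 1.10 and 1.35 in hearts 2, 5, 6 and 7. Myl4, the other atrial light chain, was at 2.03, 70.3, 3.01 and 3.69 FPKM in TAC hearts against 1.23, 1.96, 1.43 and 1.09 FPKM in sham hearts. The differences of Myl4 (1.73 ± 1.00), Myl7 (1.55 ± 1.31) and Sln (1.45 ± 1.06) did not pass the test, and without heart 5 they were 0.68, -0.043 and 0.15. Myl7 also varied between hearts at week 1, from 0.151 to 234 FPKM in sham and from 0.15 to 82.7 FPKM in TAC hearts. The rise of Nppa was 4.85 without heart 5 and 5.46 without heart 2, and each of these was called. Heart 2 was the highest of the 8 hearts for the neutrophil markers S100a8 (11.7, 1.71, 2.02 and 1.3 FPKM in TAC hearts) and S100a9 (10.8, 1.78, 1.57 and 2.4 FPKM), neither of which was called. It was the lowest of the TAC hearts for Postn, Cilp, Ctgf, Lox, Ltbp2 and Timp1 and the highest for Fos, Hspa1a, Nr4a1, Fkbp5, Pdk4 and Ppargc1a, and the part of the surgery, the sampling or the library in this was not tested.

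**Figure D3:**
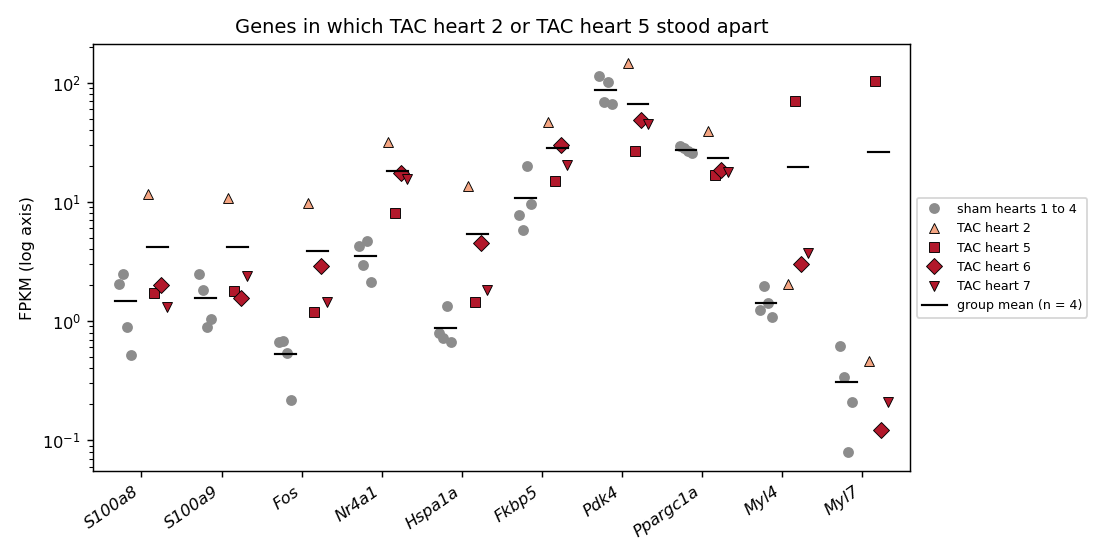
FPKM on a log axis of genes in which TAC heart 2 or TAC heart 5 stood apart from the other 7 hearts, 1 point per heart. Myl7 was at 0.463, 104, 0.123 and 0.21 FPKM and S100a8 at 11.7, 1.71, 2.02 and 1.3 FPKM in TAC hearts 2, 5, 6 and 7.

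The effect of TAC at week 8 was next set against that at week 1, with the sham hearts of each week as its own controls. The effect was higher at week 8 for 60 genes (0.439% of those tested) and lower for 3130 (22.9%). The count depended on the scaling, and the median difference over all genes was -0.265. Rescaled by median ratios, the data gave 317 genes with a higher and 809 with a lower effect and a median of -0.0028, and with quantile normalization 356 and 727 with a median of 0.031. Of the genes that rose at week 8, 227 had a smaller effect than at week 1 and 34 a larger one. Of those that fell, 200 had a lower effect than at week 1 and none a higher one. Both splits come from the FPKM as deposited, where the median difference was -0.265. They were not repeated under the other scalings, so they do not show that falls deepened by week 8. Effects at week 2, in this and the next comparisons, rest in part on 2 of 4 WTTAC libraries with a length bias, in which FPKM fell with transcript length (log2 slopes of -0.12 and -0.111 for each doubling in length, against -0.0478 to 0.0604 in the 60 libraries without it). The collagens had medians of 3.11, 1.78, 0.91 and 1.05 at weeks 1, 2, 4 and 8 (1.85 at week 2 without the biased libraries), and the effect of 16 of 19 was smaller at week 8 than at week 1, and of 13 and 14 under the other scalings. Col1a1 was at 412 FPKM in TAC hearts at week 1 and 41.2 at week 8, with sham hearts at 16.8 and 12.5 (difference of effects -2.77 ± 0.61, adjusted p = 9.24e-04). Col3a1 (-2.62 ± 0.61), Lox (-2.10 ± 0.65) and Fstl1 (-1.59 ± 0.44) went the same way, while Postn (-1.92 ± 0.75, adjusted p = 0.0545) missed the threshold.

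Cell cycle and macrophage genes had their largest median effects at week 1. For 18 cell cycle genes the medians at weeks 1, 2, 4 and 8 were 1.23, 0.62, 0.17 and -0.015 (0.80 at week 2 without the biased libraries), with 16 lower at week 8 than at week 1, and 13 under either of the other scalings. For 20 macrophage markers they were 1.83, 1.00, 0.24 and 0.23 (0.78 at week 2 without the biased libraries), with 15 lower, and 12 under either of the other scalings. The genes with the strongest differences were Plau (-1.31 ± 0.16), the nucleoside kinases Dck (-0.83 ± 0.10) and Tk1 (-1.70 ± 0.23), the peroxidase Pxdn (-1.46 ± 0.19), Ttyh3 (-1.32 ± 0.18), the cell cycle kinase Cdk2 (-0.97 ± 0.13), the replication helicase gene Mcm6 (-1.27 ± 0.17) and Epsti1 (-1.48 ± 0.21), with adjusted p between 9.13e-07 and 4.38e-06. Tk1 was at 5.14 FPKM in TAC hearts at week 1, against 1.56 in sham hearts, and at 1.01 against 1.82 at week 8, where it was called lower with all hearts but not in 5 of 8 fits with a heart left out (adjusted p between 0.0562 and 0.113). The antigen presentation list had 7 of 9 genes lower than at week 1, and 4 and 5 under the other scalings. Cd74 was at 242 FPKM in TAC and 51.5 FPKM in sham hearts at week 1, against 43.5 and 63.7 FPKM at week 8.

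A few genes had a higher effect late. Prg4 was at 12.8 FPKM in TAC hearts at week 1 and 39.6 FPKM at week 8 (difference of effects 2.20 ± 0.60, adjusted p = 0.00666). Its sham hearts were at 8.36 ± 7.09 FPKM at week 1, from 2.50 to 17.4 FPKM, and at 3.47 ± 0.626 FPKM at week 8. The sham hearts thus have a part in this difference. Edn3 was at 1.87 and 6.12 FPKM in TAC hearts of weeks 1 and 8 (1.37 ± 0.36, adjusted p = 0.00528). Npr3 (0.75 ± 0.26), Klf4 (0.95 ± 0.31) and Cd36 (0.54 ± 0.18) were also higher, Cd36 with a mean in TAC hearts of 334 FPKM at week 1 against 494 FPKM in sham hearts. Apln was at 4.96 FPKM in TAC and 5.05 FPKM in sham hearts at week 1, and its effect was lower at week 8 (-1.67 ± 0.38, adjusted p = 0.00118). Nppa did not pass this test (-0.023 ± 0.95, adjusted p = 0.991), and its effects at weeks 1, 2, 4 and 8 were 4.83, 2.45 (2.58 without the biased libraries), 2.65 and 4.81. The β-oxidation list had medians of -0.82, -0.57, -0.38 and -0.56 at these weeks (-0.38 at week 2 without the biased libraries), with no gene called between weeks 8 and 1 except 4 that were higher under median-of-ratios scaling.

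**Figure D4:**
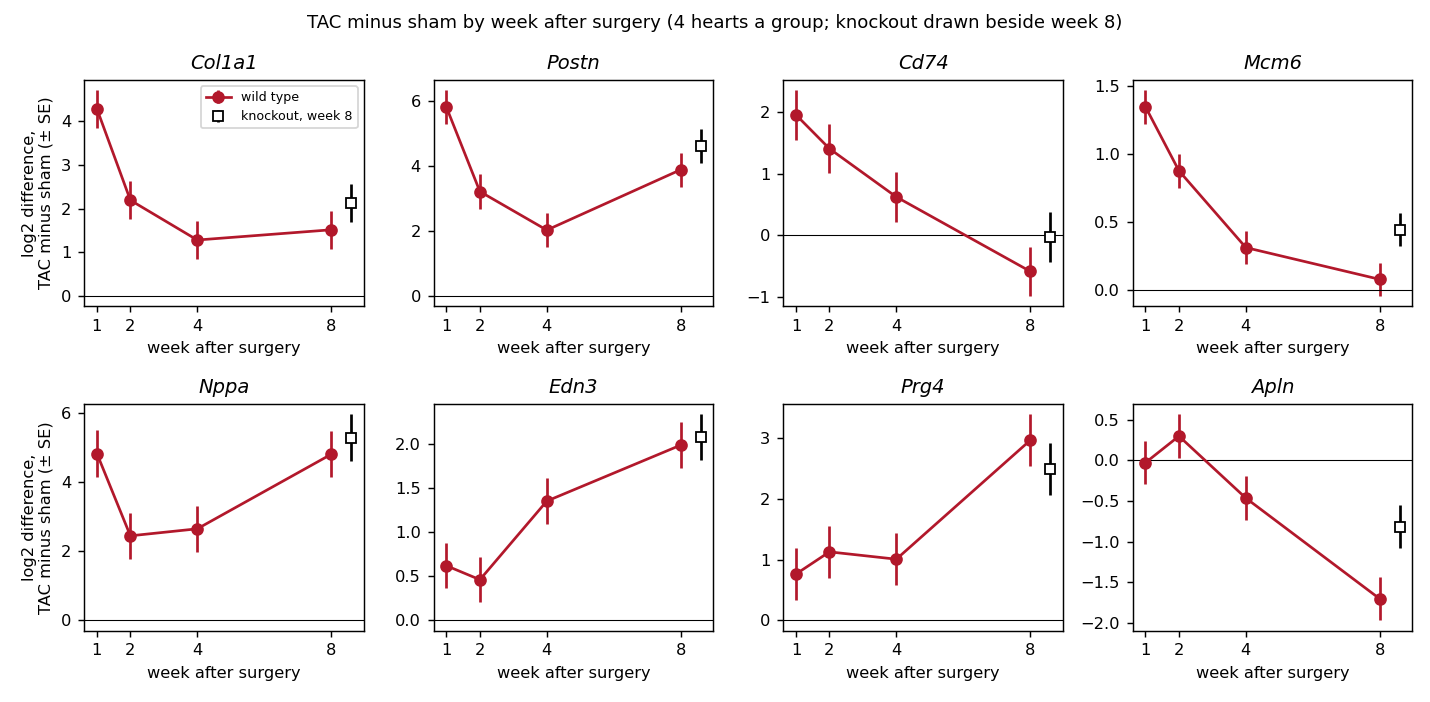
Log2 difference between TAC and sham hearts by week after surgery, in wild type at weeks 1, 2, 4 and 8 and, beside week 8, in the Ndufs4 knockout, with bars for the standard error from the model of all 64 hearts (4 hearts per group). Col1a1 fell from an effect of 4.28 at week 1 to 1.52 at week 8, while Nppa stood at 4.83 and 4.81, and the week 2 points include 2 libraries with a length bias.

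Between weeks 8 and 4 no gene was called for a different effect of TAC (0% of 13653 genes, smallest adjusted p 0.29 in limma, 653 genes at an unadjusted p under 0.05), although 2245 genes were called at week 8 and 29 at week 4. With 4 hearts per group, effects of moderate size that differ between these weeks may not have been detectable. The unequal counts of the 2 weeks thus do not show unequal effects. Without heart 2 of week 8, 14 genes were higher and 1 lower than at week 4, without heart 7 a single gene was higher, and with array weights 83 were higher and 50 lower. Nppa had an effect of 2.65 at week 4, a difference of 2.15 ± 0.95, and Postn 2.03, a difference of 1.86 ± 0.75. The median difference over all genes was 0.036.

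The Ndufs4 knockout hearts of week 8 were compared in the same way, with their own sham hearts. In them 4728 genes were higher and 756 lower in TAC than in sham hearts, but no gene was called for an effect that differed from that in wild type (0%, smallest adjusted p 0.206 in limma, 1234 genes at an unadjusted p under 0.05). With array weights, which lower the weight of variable libraries, 4 genes had a higher and 361 a lower effect in wild type. The median difference, wild type minus knockout, was -0.159, and -0.0028 under median-of-ratios scaling. Gdf15 had an effect of 1.86 in wild type and 4.31 in the knockout, a difference of -2.45 ± 0.77 (adjusted p = 0.461), with 5.79 FPKM in WTTAC and 39 FPKM in KOTAC hearts. Myh7 had effects of 0.86 and 1.5 (difference -0.63 ± 0.50, adjusted p = 0.654). Nppa had effects of 4.81 and 5.29, Postn of 3.89 and 4.62, Kcnip2 of -1.55 and -1.09 and Acaa2 of -1.18 and -1.54. The median of the potassium channel list was -0.38 in wild type and -0.56 in the knockout, and that of the β-oxidation list -0.56 and -0.57. The standard errors of these differences were of the size of many of the differences themselves, so effects of moderate size that differ between genotypes may not have been detectable with 4 hearts per group.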

How the data were processed

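RNA of 64 hearts, 4 in each of 16 groups of genotype, operation and week, was sequenced by the authors as Illumina TruSeq libraries from total RNA with an RNA integrity number of at least 8. Per the study's methods, reads were checked with FastQC and aligned to mouse build mm9 with TopHat. FPKM were deposited by the authors from Cufflinks on the Ensembl annotation, 1 value per gene entry as the sum over its transcripts, and they carry no depth. The FPKM are scaled within each library, so a few very abundant genes can shift all others.

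FPKM were analysed as log2(FPKM + 1), with limma 3.58.1 in R 4.3.3, on the 13653 of 30285 gene entries with at least 1 FPKM in at least 4 libraries. A mean was fitted for each of the 16 groups, with a trend in the prior variance, and p-values were adjusted by Benjamini-Hochberg over all genes. The study tested differential expression from read counts, so this test differs from the one in its methods. Differences of TAC effects were contrasts of the same model, and each week and genotype had its own sham hearts. The script was tested on simulated data. Exact permutation tests, promoter searches and counts used Python 3.11.15 with scipy 1.17.1.

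Gene lists (31 of function and 16 of cell type markers) were described by counts and medians, with no test. The genes named were the 15 largest called rises and 15 largest called falls with a mean of at least 1 FPKM in both groups or 5 in one, the members of a list with the strongest statistics (at most 4), a fixed set of classical genes, and up to 8 called genes for each difference of effects. Other list members, and Fos, Efemp1, Myl4, Myl7 and Sln, were named after their values were seen, and some genes that met the rule are not reported here. The groups and lists were chosen with earlier results of these data known. No value column was outside the series (0 columns). Alternatives were another pseudocount (0.1), filter, scaling, variance model, sample set and fold threshold, each heart left out in turn, and, chosen after seeing the data, each rescaling without TAC heart 2. Sequences came from RefSeq tables of build GRCm38.p6, matched by symbol, and gene positions from the annotation of NCBIM37.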

Additional observations from a re-analysis of the deposited data

Results flagged for a closer look

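Of 316 groups of 4 hearts examined, 31 held a heart far from the other 3. Chance alone gives such a value in about 5% of groups that are independent and not picked by their values. Neither condition holds here. Some genes, such as Myl4, Myl7 and Sln, were named after their values were seen, and all were measured in the same 8 hearts. The count is therefore not read as an excess over chance. TAC heart 2 accounted for 19 of the 31. It lay on the side of the sham hearts for Sprr1a (0.309 FPKM), Tnni3 (3616 FPKM), Pln (1795 FPKM), Casq2 (482 FPKM), Kcnd2 (2.26 FPKM), Scn4b (14.0 FPKM), Grk5 (6.02 FPKM), Prkar1a (161 FPKM), Postn (39.3 FPKM), Ltbp2 (5.1 FPKM), Fbln2 (50.3 FPKM), Pfkp (19.2 FPKM), Ndufa9 (297 FPKM), Ckm (1439 FPKM), Nmnat3 (7.32 FPKM), Gpx3 (108 FPKM) and Bhlhe40 (20.4 FPKM). It lay above both other TAC and sham hearts for Ppargc1a (39.5 FPKM) and S100a8 (11.7 FPKM). TAC heart 5 stood apart for Myl4 (70.3 FPKM), Myl7 (104 FPKM) and Sln (40.2 FPKM), all higher, and for Junb (8.66 FPKM), lower than the other TAC hearts.

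Among sham hearts, heart 4 was lowest for Gdf15 (0.273 FPKM), Mfap5 (8.15 FPKM) and Scarna17 (listed at 0) and heart 3 for Casq2 (320.1 FPKM) and Kcnd2 (2.49 FPKM). Sham heart 1 was highest for Mccc1 (46.5 FPKM) and for Sln (0.0742 FPKM, with the others listed at 0), and sham heart 2 was highest for Nmrk2 (4.18 FPKM).

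For 28 of the genes named, the effect of TAC differed between weeks 8 and 1 in limma. It was lower at week 8 for Col1a1 (-2.77), Col3a1 (-2.62), Col5a2 (-2.09), Col8a1 (-1.90), Lox (-2.10), Loxl2 (-1.18), Fstl1 (-1.59), Pxdn (-1.46), Plau (-1.31), Cd74 (-2.54), Apln (-1.67), Tk1 (-1.70), Epsti1 (-1.48), Ttyh3 (-1.32), Mcm6 (-1.27), Cdk2 (-0.97), Dck (-0.83), Hcn2 (-0.94), Des (-0.92), Camk2b (-0.70) and Parp1 (-0.51). It was higher for S100a9 (2.32), S100a8 (2.09), Prg4 (2.20), Edn3 (1.37), Klf4 (0.95), Npr3 (0.75) and Cd36 (0.54). The differences of Hcn2, Des, Camk2b and Parp1 were not called under median-of-ratios scaling. Over all genes tested, 0.439% had a higher and 22.9% a lower effect at week 8, so the count of 28 shows nothing particular to the genes named. Plau, Dck, Tk1, Pxdn, Ttyh3, Cdk2, Mcm6 and Epsti1 were named because they were called in this same comparison. For S100a8 and S100a9, TAC heart 2 held by far the highest level at week 8. Their list of 3 tested neutrophil markers also had a median effect of -1.35 at week 1, with 2 genes lower and 1 higher, against 0.73 at week 8. The part of each week in these differences was not tested.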

How the results depend on the processing

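Between the week 8 groups, 1410 genes higher became 2752 with array weights, 273 with a fold of at least 2, and 802 to 1810 with a heart left out. The 835 lower became 1268 under median-of-ratios scaling, 1470 under quantile normalization, 1523 and 1795 under these without TAC heart 2, 1985 with array weights, 1279 without 4 libraries of week 2 that have a length bias, 92 with a fold of at least 2, and 462 to 1121 with a heart left out. For week 8 minus week 4, the counts of 0 became 83 higher and 50 lower with array weights, 28 and 4 under median-of-ratios scaling without TAC heart 2, 22 and 5 under quantile normalization without it, and 0 to 14 higher and 0 to 1 lower with a heart left out. For week 8 minus week 1, the 60 higher became 99 without a filter, 39 with at least 5 FPKM, 317 under median-of-ratios scaling, 356 under quantile normalization, 330 and 380 under these without TAC heart 2, 238 with array weights, 123 without the 4 libraries, 28 with a fold of at least 2, and 35 to 112 with a heart left out. The 3130 lower became 1961 with at least 5 FPKM, 809 and 727 under the rescalings, 703 and 635 under these without TAC heart 2, 5716 with array weights, 500 with a fold of at least 2, and 2270 to 4110 with a heart left out. For wild type minus knockout, the counts of 0 became 4 higher and 361 lower with array weights, and 0 to 1 lower with a heart left out. The cause of these shifts was not tested.

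Of 161 genes followed, 134 were called, 109 of these in every setting that tested them and none with the opposite sign, and 9 of the 134 were not tested with at least 5 FPKM. Signs changed for genes that were not called: with a heart left out, Cd36 ranged from -0.077 to 0.0043 (without TAC heart 7), Myl7 from -0.043 (without TAC heart 5) to 2.14, and Ttyh3 from -0.11 to 0.013 (without TAC heart 6, and 0.0073 without sham heart 3), and Cd36 was at 0.0030 under quantile normalization without TAC heart 2. No paired analysis was possible because the sham hearts are numbered 1 to 4 and the TAC hearts 2, 5, 6 and 7, so that the groups share a single number. With 4 hearts in each group, no counts and many genes listed at 0 in some library, small changes and genes of low FPKM are the least certain.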
